A study of Mus musculus with 13 samples.

Results

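The 40 genes described here encode enzymes that break down lipids, sugars and proteins inside lysosomes, proteins of the lysosomal membrane, and the MiT/TFE transcription factors that drive lysosomal genes. Their rule is a list of gene symbols drawn up with earlier results of these data known, and all 40 were found among the 48587 symbols of the count table and passed the filter on low counts. RNA sequencing libraries of macrophages from the sciatic nerve (4) and the optic nerve (4) and of microglia from the brain (5) of C57BL/6J mice were compared. The brain columns of the table carry an unexplained prefix and were taken as brain by elimination. The labels give no genetic change, no treatment, no age and no sorting markers for any of the groups, and they do not say whether the libraries came from separate animals, so the p-values measure the spread between these libraries, which may be technical. The sciatic nerve belongs to the peripheral and the optic nerve to the central nervous system, and the series asks how the macrophages of these systems differ.

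Lysosomes are acidic compartments in which material taken up by a macrophage, and its own worn parts, are digested by hydrolases. Membrane glycoproteins such as LAMP-1 and LAMP-2 shield the wall of the compartment, and channels and transporters release the products. TFEB, TFE3 and MITF bind E-box sequences with the core CACGTG in the promoters of many lysosomal genes, and they are held in the cytoplasm while the kinase mTORC1 is active on the lysosomal surface. In nervous tissue lysosomal enzymes of macrophages digest, among other things, the glycolipids of myelin, and inherited loss of many of the enzymes below causes storage disease.

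Before the values, the promoters in which an E-box core was found are shown, since they carry the sequence that the MiT/TFE factors are known to bind. RefSeq promoter windows (build GRCm38.p6, 250 bases before to 50 bases after the start site) were present for 36 of the 40 genes, and 9 of these (25.0%) held CACGTG, against 8.09% of 27025 genes. The motif is its own reverse complement, so both strands are read at once. The longer form TCACGTGA, which contains the core, was found in 3 of the 36 (8.3%, against 1.12% of genes). Each stretch runs 5′ to 3′ on the strand of the gene, from 15 bases before the first match to 15 bases after the last, with the matches in capitals.
Gla, chrX:134601178-134601248, minus strand: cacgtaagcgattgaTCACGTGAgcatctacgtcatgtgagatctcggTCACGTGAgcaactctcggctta
Lamp1, chr8:13159085-13159166, plus strand: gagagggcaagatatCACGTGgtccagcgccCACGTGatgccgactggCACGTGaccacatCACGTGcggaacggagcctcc
Mcoln1, chr8:3500433-3500495, plus strand: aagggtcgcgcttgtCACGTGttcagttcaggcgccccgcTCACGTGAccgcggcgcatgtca
Cln3, chr7:126583336-126583400, minus strand: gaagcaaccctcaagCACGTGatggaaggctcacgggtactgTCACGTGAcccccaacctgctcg
Glb1, chr9:114401015-114401050, plus strand: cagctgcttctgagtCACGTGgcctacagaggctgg
Arsa, chr15:89477420-89477455, minus strand: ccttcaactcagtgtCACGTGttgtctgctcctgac
Naglu, chr11:101070006-101070041, plus strand: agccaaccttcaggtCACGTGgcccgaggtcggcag
Sgsh, chr11:119355519-119355554, minus strand: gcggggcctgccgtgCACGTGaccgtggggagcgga
Gaa, chr11:119267808-119267843, plus strand: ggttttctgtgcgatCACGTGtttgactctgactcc

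Lamp1 had 4 matches whose first bases stood 61, 45, 28 and 15 bases before its start site, Gla, Mcoln1 and Cln3 had 2 each, and the others had 1. The Gla matches also lie at the 5′ end of Hnrnph2, which GENCODE M21 annotates on the opposite strand from 53 bases beyond the annotated start of Gla. A match describes the letters only, and no binding was measured. The 9 genes did not share a direction: relative to brain, Gla, Lamp1 and Mcoln1 were called higher in sciatic nerve, Naglu, Gaa and Cln3 lower, and Glb1, Arsa and Sgsh were not called. Of all genes tested 24.1% were higher and 24.3% lower there. In optic nerve relative to brain 1 of the 9 was higher, 3 were lower and 5 were not called. Of all genes tested 19.6% were higher and 17.4% lower in that comparison. The counts of the 9 genes are small and were not tested against these shares. Alternative analyses lost the sciatic nerve call of Lamp1 (8 of 19) and the optic nerve calls of Gaa (9 of 19) and Cln3 (11 of 19).

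Libraries held 10.9 to 23.5 M counts. Levels are CPM, counts scaled to a library size of 1000000 after TMM adjustment, and values by library are given in the order of the library numbers (sciatic nerve 1 to 4, optic nerve 1 to 4, brain 1 to 5). Brain library 1 stood apart, with 10.9 M counts and a mitochondrial share of 3.79% (0.410% to 1.23% elsewhere). It held the lowest brain value of 29 of the 40 genes (72.5%), against 36.4% of the 13246 genes tested. The results were also computed without brain libraries 1 and 2, a choice made after seeing the data. Markers of other cells moved with the tissue. The summed level of 8 fibroblast genes was 197 to 415 CPM in the sciatic nerve, 13 to 41.3 CPM in the optic nerve and 2.26 to 7.64 CPM in the brain, and that of 5 monocyte genes 385 to 562 CPM, 7.03 to 23.2 CPM and 0.711 to 10.2 CPM. Most of these sums in sciatic nerve came from Gsn (mean 209.98 CPM) and Ccr2 (mean 458 CPM). Ly6c2, which marks classical monocytes, was at a mean of 0.0691 CPM there and Chil3 at 0. Ccr2 and Plac8 (mean 12.1 CPM, 1.02 CPM in brain), the monocyte genes tested, were called higher than in brain. Of 6 neutrophil genes S100a8, Ly6g and Mmp8 were at 0 in all 13 libraries, and Retnlg, the 1 tested, was called higher in both nerves (mean 1.64 CPM for sciatic nerve, 0.463 CPM for optic nerve and 0 for brain). Of 5 dendritic cell genes tested 4 were higher in sciatic and 3 in optic nerve than in brain, with Cd209a at a mean of 358 CPM in sciatic nerve and 0 in brain. The 6 genes on that list summed to 581 to 728 CPM, 1509 to 1948 CPM and 2096 to 3506 CPM in sciatic nerve, optic nerve and brain, the order kept for the next sums. Siglech, also a microglial marker, was called lower in both nerves than in brain (means 239 CPM, 1686 CPM and 2531 CPM). It made up most of these sums in optic nerve and brain. Of 3 Schwann cell genes tested 2 were higher in sciatic nerve than in brain (sums 1028 to 1176 CPM, 520.1 to 737 CPM and 325 to 749.8 CPM). In optic nerve 2 of 5 oligodendrocyte genes tested, Mbp and Mag, were higher than in brain (sums 165 to 235 CPM, 247 to 308 CPM and 122 to 176 CPM). So was 1 of 3 astrocyte genes tested, Gfap (mean 6.35 CPM in optic nerve, 0.0979 CPM in brain). Another, Slc1a3, was called lower in both nerves than in brain (means 0.797 CPM, 81.5 CPM and 211 CPM). Slc1a3 made up most of the astrocyte sums in optic nerve and brain (sums 0.898 to 4.77 CPM, 75.1 to 106 CPM and 183 to 243 CPM). The sum of 10 early response genes was 17041 to 22193 CPM in the sciatic nerve, 10126 to 13097 CPM in the optic nerve and 273 to 312 CPM in the brain. All 10 were called higher in both nerves than in brain. Of the fibroblast genes 7 of 7 tested were called higher in sciatic nerve than in brain. The part of these genes in the results below was not tested. The microglial marker P2ry12 was at 8366 ± 2776 CPM in brain, 2455 ± 103 CPM in the optic nerve and 141 ± 12.6 CPM in the sciatic nerve, and Tmem119 at 4726 ± 921 CPM, 1729 ± 314 CPM and 6.84 ± 1.85 CPM in the same order. The 6 macrophage markers summed to 8209 to 18753 CPM in brain, 9257 to 10899 CPM in the optic nerve and 6801 to 8868 CPM in the sciatic nerve. Csf1r gave the largest part of these sums (means 10951 CPM, 7024 CPM and 4750 CPM in the same order). Relative to brain, 5 of the 6 were called lower in sciatic nerve and 1, Adgre1, higher. In optic nerve 2 were called lower and 0 higher. In bulk RNA fewer cells of a type and less RNA per cell cannot be told apart.

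The comparisons ask which lysosomal genes differ between macrophages of the peripheral nerve, the optic nerve and the brain. The set as a whole did not shift in 1 direction. Both nerves held more Gla, Gm2a, Npc2 and Cd63 and less Smpd1, Idua, Gaa, Npc1, Laptm5, Ctns, Cln3 and Tfeb than brain. Some alternative analyses lost the sciatic nerve call of Gm2a, Idua or Ctns, or the optic nerve call of Gaa, Cln3 or Tfeb. For Smpd1, Idua, Gaa, Ctns and Tfeb brain library 1 lay below the highest nerve library. Sciatic nerve held more of the acid lipase gene Lipa than both other tissues and less of Naglu, Arsb and Scarb2, and optic nerve held the most Npc2 and Gm2a and the least Mitf. In sciatic nerve relative to brain 11 of the 40 genes were higher, 13 lower and 16 not called (edgeR's quasi-likelihood test, Benjamini-Hochberg adjusted p under 0.05 over all 13246 genes), against 24.1% and 24.3% of all genes tested in the same directions (either direction 48.4%). In optic nerve relative to brain 5 were higher and 10 lower (background 19.6% and 17.4%, either direction 36.9%), and between sciatic and optic nerve 4 were higher in sciatic and 8 lower (background 10.9% and 10.9%, either direction 21.8%). Differences of at least 2-fold were called for 4 higher and 8 lower genes in sciatic nerve against brain (background 18.0% and 19.3%), 3 and 4 in optic nerve against brain (12.6% and 12.5%), and 2 and 2 between the nerves (8.28% and 7.85%). The median log2 fold change of the set was 0.09, -0.20 and 0.01 in the same order, and that of all genes -0.09, -0.08 and 0.00. The 2 comparisons with brain share the brain libraries. Without brain libraries 1 and 2 the number of members lower in optic nerve than in brain went from 10 to 19 (background 18.5%), with Naglu, Ids, Arsb, Man2b1, Manba, Lipa, Tpp1, Lamp2, Scarb2 and Laptm4a added and Cln3 lost. Those higher in sciatic than in optic nerve went from 4 to 9 (background 15.3%), with Galc, Asah1, Hgsnat, Manba and Lamp2 added. Genes were also added in the other direction. Glb1, Psap, Man2b1 and Ppt1 joined those lower in sciatic than in optic nerve, and Neu1 and Fuca1 those higher in optic nerve than in brain. Some of the genes added were also called without brain library 1 alone. They were Naglu, Lipa, Tpp1 and Scarb2 between optic nerve and brain, and Asah1, Lamp2, Glb1, Man2b1 and Ppt1 between the nerves. The libraries did not overlap for 19 of the 40 between sciatic nerve and brain (background 41.3%), 11 between optic nerve and brain (31.8%) and 19 between the nerves (29.9%).

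**Figure D1:**
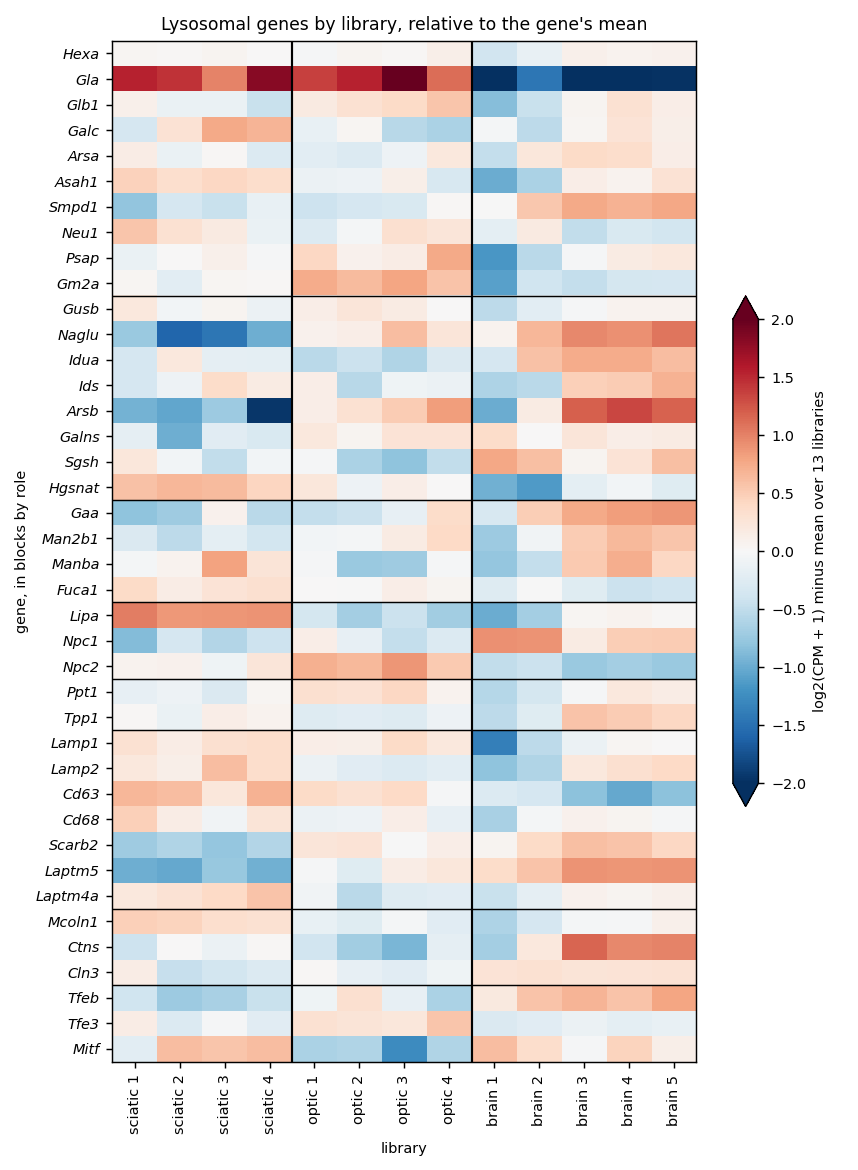
Level of each of the 40 genes (rows, in blocks by role) in each of the 13 libraries (columns), as log2(CPM + 1) minus the gene's mean over the 13 libraries, with colours limited at 2 in either direction. Gla is above its mean in all 8 nerve libraries and below it in all 5 brain libraries, and brain libraries 1 and 2 differ from the other 3 in many rows.

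Per kilobase of annotated exon, which allows levels of different genes to be set side by side, the most abundant of the 40 on average over the tissues were Cd68, Psap, Laptm5, Hexa and Lamp1. Cd68 reached 1167, 967 and 946 CPM per kb in sciatic nerve, optic nerve and brain. In brain Laptm5 was the highest of the set at 1280.4 CPM per kb, and in optic nerve Psap at 1046 CPM per kb. The lowest averages were those of Galc and Sgsh (2.28 and 3.09 CPM per kb), followed by the transcription factor Mitf (3.18 CPM per kb). Exon lengths were taken from GENCODE M21, and the transcripts these cells use may be shorter. The rank of Galc depends on its annotated length of 14879 bases, the longest of the 40. Before division by length its tissue means (26.2 to 43.3 CPM) were above those of Sgsh (9.37 to 19 CPM). The exon union of 11 of the 40 genes shares bases with another annotated gene, most in Arsb (39.9% of its exon bases, with opposite-strand genes), Sgsh (21.6%, with Card14), Arsa (18.8%) and Hexa (12.8%). Since the strand setting of the counting is not given, the values of these genes are less certain.

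The group of enzymes and activator proteins for sphingolipids held the largest difference of the set. Gla encodes alpha-galactosidase A, which removes the terminal galactose of globotriaosylceramide and is deficient in Fabry disease (chromosome X, 134588149 to 134601125, minus strand, GRCm38). Its level was 98.3, 92.7, 67.3 and 119.7 CPM in the sciatic nerve, 86.9, 98.7, 149.6 and 73.2 CPM in the optic nerve and 2.11, 11.5, 5.17, 4.65 and 7.68 CPM in the brain. All 8 nerve libraries lay above all 5 brain libraries, and the 2 nerves overlapped. Gla was higher in sciatic nerve (log2 fold change 3.91, SE 0.38, edgeR adjusted p = 8.11e-07) and in optic nerve (log2 fold change 4.02, SE 0.38, edgeR adjusted p = 1.39e-06) than in brain, about 15-fold and 16.2-fold, and the nerves differed by a log2 fold change of -0.11 (SE 0.37). The neighbouring Hnrnph2 was also higher in the nerves, with means of 155, 117 and 49.1 CPM in sciatic nerve, optic nerve and brain, and the annotated genes do not overlap.

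Gm2a encodes the activator protein that presents GM2 ganglioside for breakdown. It measured 353, 298, 355 and 350.2 CPM in the sciatic nerve, 574, 537, 594 and 509.98 CPM in the optic nerve and 161, 261, 248, 271 and 272 CPM in the brain. The optic nerve libraries were the highest and did not overlap with either other tissue. Gm2a was higher in optic nerve than in brain (log2 fold change 1.19, SE 0.15, edgeR adjusted p = 2.73e-05) and lower in sciatic than in optic nerve (log2 fold change -0.71, SE 0.16, edgeR adjusted p = 0.00477). It was also called higher in sciatic nerve than in brain (log2 fold change 0.48, SE 0.15, edgeR adjusted p = 0.0165), a call lost when genes with low counts were not filtered. Hexa, the gene mutated in Tay-Sachs disease, differed by less than its spread in brain. It measured 1522 ± 22 CPM in the sciatic nerve (n = 4), 1537 ± 61.2 CPM in optic nerve (n = 4) and 1447 ± 194 CPM in brain (n = 5), with fitted log2 fold changes of 0.07 (SE 0.12) and 0.09 (SE 0.12) relative to brain.

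Smpd1 encodes acid sphingomyelinase, whose loss causes Niemann-Pick disease types A and B. Its values were 39.1, 54.1, 50.1 and 61.4 CPM in the sciatic nerve, 51.2, 54.1, 55.1 and 69.9 CPM in the optic nerve and 68.3, 99.96, 116, 111 and 117 CPM in the brain. Sciatic nerve lay below all brain libraries, and optic nerve library 4 alone reached above the lowest brain library. Smpd1 was lower in sciatic nerve (log2 fold change -1.004, SE 0.19, edgeR adjusted p = 5.33e-04) and in optic nerve (log2 fold change -0.83, SE 0.19, edgeR adjusted p = 0.0034) than in brain. Of the other members, Neu1, the sialidase, was called higher in sciatic nerve than in brain at the edge of the threshold (log2 fold change 0.47, SE 0.19, edgeR adjusted p = 0.0494), and 13 of 19 alternative analyses lost that call. The remaining 6 genes, Hexa, Glb1 (beta-galactosidase), Galc (galactosylceramidase, which digests myelin galactolipids), Arsa (arylsulfatase A, for sulfatide), Asah1 (acid ceramidase) and Psap (the precursor of the saposins), were not called in any comparison. Galc measured 43.3 ± 13.7 CPM in the sciatic nerve, 26.2 ± 6.09 CPM in the optic nerve and 32.4 ± 6.31 CPM in the brain, and Asah1 1256 ± 48.9 CPM, 894 ± 112 CPM and 866 ± 297 CPM. Without brain libraries 1 and 2, Galc and Asah1 were called higher in sciatic than in optic nerve (log2 fold change 0.72, adjusted p = 0.0401 and log2 fold change 0.48, adjusted p = 0.00267), and Glb1 and Psap lower (log2 fold change -0.52, adjusted p = 0.00993 and log2 fold change -0.40, adjusted p = 0.0444). With only the nerve libraries in the fit, Asah1 and Glb1 were also called (log2 fold change 0.46, adjusted p = 0.01 and log2 fold change -0.54, adjusted p = 0.0155), and Galc and Psap were not.

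Of 8 enzymes of glycosaminoglycan breakdown, 4 were lower and 1 higher in sciatic nerve than in brain (background 24.3% and 24.1%). Idua and Galns among the lower ones lost the call in some alternatives. In sciatic relative to optic nerve 3 were lower and 0 higher (background 10.9% and 10.9%). In optic nerve relative to brain 2 were lower and 0 higher (background 17.4% and 19.6%). Naglu encodes alpha-N-acetylglucosaminidase, an enzyme of heparan sulfate breakdown whose loss causes Sanfilippo syndrome type B (chromosome 11, 101070012 to 101077672, plus strand). Its values were 72.8, 40.2, 44.6 and 62.1 CPM in the sciatic nerve, 130.5, 134, 188 and 145 CPM in the optic nerve and 128, 195, 239.995, 231 and 259 CPM in the brain. Every sciatic nerve library lay below every library of the other tissues, which overlapped. Naglu was lower in sciatic nerve than in brain (log2 fold change -1.94, SE 0.23, edgeR adjusted p = 7.55e-06) and than in optic nerve (log2 fold change -1.44, SE 0.24, edgeR adjusted p = 3.81e-04).

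Arsb encodes arylsulfatase B, which acts on dermatan and chondroitin sulfate. It measured 59.1, 55.8, 69.4 and 29.3 CPM in the sciatic nerve, 126, 142, 165 and 205 CPM in the optic nerve and 57.2, 129, 264, 290.4 and 262 CPM in the brain. The brain libraries were uneven, and library 1 fell within the range of sciatic nerve, which itself did not overlap with optic nerve. Arsb was lower in sciatic nerve than in brain (log2 fold change -1.91, SE 0.40, edgeR adjusted p = 0.00117) and than in optic nerve (log2 fold change -1.58, SE 0.41, edgeR adjusted p = 0.0114). Between optic nerve and brain it was not called, and without brain libraries 1 and 2 it was lower (log2 fold change -0.76, adjusted p = 0.022). Hgsnat, the membrane-bound acetyltransferase of heparan sulfate breakdown, went the other way, with 193, 205, 199 and 174 CPM in the sciatic nerve, 151, 119.8, 141 and 129 CPM in the optic nerve and 65.5, 58.3, 113, 124 and 108 CPM in the brain. Its sciatic nerve libraries were above all others. Hgsnat was higher in sciatic nerve than in brain (log2 fold change 1.04, SE 0.20, edgeR adjusted p = 7.09e-04), and the difference between the nerves was not called (log2 fold change 0.51, SE 0.22, edgeR adjusted p = 0.111). It was called with only the nerve libraries in the fit and without brain libraries 1 and 2 (log2 fold change 0.48, adjusted p = 0.0102 and log2 fold change 0.50, adjusted p = 0.00286).

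Other members differed in smaller steps. Idua, alpha-L-iduronidase, was at 48.7 ± 8.70 CPM in the sciatic nerve, 38.1 ± 3.75 CPM in the optic nerve and 76.1 ± 19.7 CPM in the brain. It was lower in both nerves (log2 fold change -0.64, SE 0.21, edgeR adjusted p = 0.021 for sciatic and log2 fold change -1.001, SE 0.21, edgeR adjusted p = 0.00225 for optic nerve). The call in sciatic nerve was lost without sciatic nerve library 1 or 3 (adjusted p = 0.0662 and 0.053). Brain library 1, at 41.8 CPM, lay within the range of sciatic nerve. Sgsh, the heparan N-sulfatase, measured 12.6 ± 2.71 CPM, 9.37 ± 2.56 CPM and 19 ± 3.81 CPM in the same order and was lower in optic nerve than in brain (log2 fold change -1.02, SE 0.27, edgeR adjusted p = 0.00812). Galns, which desulfates keratan sulfate, was lower in sciatic nerve than in brain (log2 fold change -0.60, SE 0.20, edgeR adjusted p = 0.0219) and than in optic nerve (log2 fold change -0.62, SE 0.21, edgeR adjusted p = 0.0453). The calls were lost in 2 of 19 and 13 of 20 alternative analyses. Gusb, beta-glucuronidase, and Ids, iduronate 2-sulfatase, were not called in any comparison. Gusb measured 412 ± 41.3 CPM, 447 ± 31.4 CPM and 376 ± 60.6 CPM in the same order, and Ids measured 46.7, 49.4, 101, 103 and 118 CPM over the brain libraries. Without brain libraries 1 and 2, Ids was lower in both nerves than in brain (log2 fold change -0.52, adjusted p = 0.0327 for sciatic and log2 fold change -0.70, adjusted p = 0.00936 for optic nerve).

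Among the glycosidases of glycogen and glycoproteins, Gaa, acid alpha-glucosidase, the enzyme deficient in Pompe disease, had 60.2, 64.7, 113 and 73.2 CPM in the sciatic nerve, 75.9, 78.9, 95.2 and 137 CPM in the optic nerve and 84.7, 149, 179, 191 and 198 CPM in the brain. Brain libraries 2 to 5 lay above every nerve library, and brain library 1 did not. Gaa was lower in sciatic nerve (log2 fold change -1.04, SE 0.27, edgeR adjusted p = 0.00512) and in optic nerve (log2 fold change -0.73, SE 0.27, edgeR adjusted p = 0.0436) than in brain. The second call was lost in 9 of 19 alternatives, for example without brain library 2 (log2 fold change -0.76, adjusted p = 0.0545). Man2b1, lysosomal alpha-mannosidase, measured 831, 708, 886 and 783 CPM in the sciatic nerve, 973, 993, 1132 and 1334 CPM in the optic nerve and 613, 971, 1447, 1588 and 1495 CPM in the brain. Its brain range enclosed the levels of both nerves. Man2b1 was called lower in sciatic nerve than in brain (log2 fold change -0.61, SE 0.23, edgeR adjusted p = 0.0412), a call that 11 of 19 alternatives lost. Every sciatic nerve library lay below every optic nerve library, without a call (log2 fold change -0.47, SE 0.24, edgeR adjusted p = 0.2). In 4 of 20 alternatives that difference was called, among them the fit of only the nerve libraries (log2 fold change -0.50, edgeR adjusted p = 0.0124). Manba, beta-mannosidase, with 64.9, 70.1, 117 and 79.8 CPM in the sciatic nerve, 65.3, 39.3, 40.3 and 65.9 CPM in the optic nerve and 38.7, 47.5, 95.9, 111 and 89.1 CPM in the brain, overlapped throughout and was not called in any comparison. Fuca1, alpha-L-fucosidase, was higher in sciatic nerve than in brain (375 ± 24.2 CPM against 257 ± 31.2 CPM, log2 fold change 0.54, SE 0.12, edgeR adjusted p = 0.00171), and optic nerve lay between them at 318 ± 13 CPM.

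The genes that free cholesterol from the lysosome differed from each other. Lipa encodes lysosomal acid lipase, which hydrolyses the cholesterol esters and triglycerides of ingested lipoproteins and debris (chromosome 19, 34492318 to 34527474, minus strand). It measured 519, 466, 472 and 478 CPM in the sciatic nerve, 200.03, 158, 189.7 and 158 CPM in the optic nerve and 128, 159, 261, 268 and 259.8 CPM in the brain. Sciatic nerve stood above all other libraries with little spread, and the optic nerve and brain overlapped. Lipa was higher in sciatic nerve than in brain (log2 fold change 1.17, SE 0.20, edgeR adjusted p = 2.42e-04) and than in optic nerve (log2 fold change 1.46, SE 0.22, edgeR adjusted p = 1.55e-04). Between optic nerve and brain it was not called, but it was lower in optic nerve without brain library 1 (log2 fold change -0.43, adjusted p = 0.0431) or without libraries 1 and 2 (log2 fold change -0.57, adjusted p = 0.00103).

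Npc2, the soluble protein that hands cholesterol to NPC1, measured 868, 877, 776 and 975 CPM in the sciatic nerve, 1354, 1296, 1518 and 1191 CPM in the optic nerve and 588, 611, 494, 513 and 492 CPM in the brain. The tissues did not overlap, in the order optic nerve, sciatic nerve, brain. Npc2 was higher than in brain in both optic nerve (log2 fold change 1.31, SE 0.13, edgeR adjusted p = 1.52e-06) and sciatic nerve (log2 fold change 0.70, SE 0.13, edgeR adjusted p = 3.59e-04), and lower in sciatic than in optic nerve (log2 fold change -0.62, SE 0.13, edgeR adjusted p = 0.00342). Npc1, the membrane protein that exports cholesterol, ran opposite to Npc2 relative to brain, with 50.4, 73.8, 61.6 and 69.2 CPM in the sciatic nerve, 102, 83.2, 66.3 and 76.7 CPM in the optic nerve and 177, 174, 105, 131 and 132 CPM in the brain. Every brain library lay above every nerve library, and the nerves overlapped. Npc1 was lower in sciatic nerve (log2 fold change -1.17, SE 0.19, edgeR adjusted p = 1.50e-04) and in optic nerve (log2 fold change -0.81, SE 0.19, edgeR adjusted p = 0.0042) than in brain. Loss of either NPC gene causes Niemann-Pick disease type C.

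**Figure D2:**
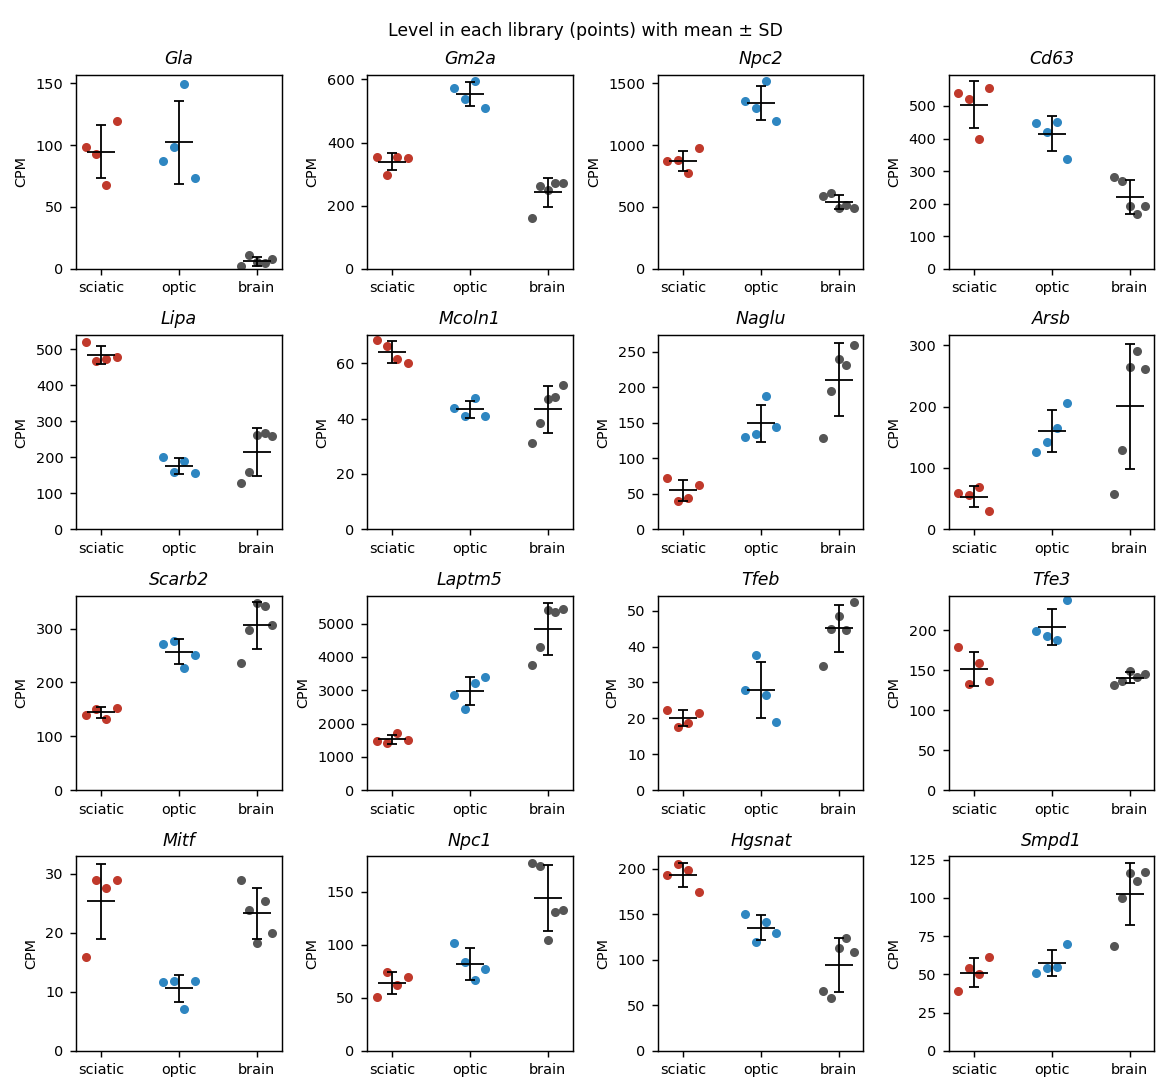
CPM in each library (points; red sciatic nerve, blue optic nerve, grey brain) with the mean and SD of each tissue (bars) for 16 of the genes, each on its own axis starting at 0. Gla is at or below 11.5 CPM in every brain library, Lipa is highest in all 4 sciatic nerve libraries, and Mitf is lowest in all 4 optic nerve libraries.

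The enzymes of protein and fatty acyl thioester breakdown, both mutated in forms of neuronal ceroid lipofuscinosis, were not called in any comparison. Ppt1, which removes palmitate from proteins, had 432, 452, 397 and 501 CPM in the sciatic nerve, 608, 593, 644 and 509.7 CPM in the optic nerve and 326, 382, 478, 562 and 538 CPM in the brain. Optic nerve lay above sciatic nerve in every library, without a call (log2 fold change -0.40, SE 0.17, edgeR adjusted p = 0.115), and brain overlapped both. Tpp1, tripeptidyl peptidase 1, had 465, 420.4, 505 and 484 CPM in the sciatic nerve, 385, 393, 383 and 427 CPM in the optic nerve and 321, 386, 685, 656 and 613 CPM in the brain. Brain libraries 3 to 5 stood above all others. Without brain libraries 1 and 2, Tpp1 was lower in both nerves than in brain (log2 fold change -0.48, adjusted p = 0.0011 for sciatic and log2 fold change -0.71, adjusted p = 8.24e-05 for optic nerve), and Ppt1 was lower in sciatic than in optic nerve (log2 fold change -0.41, adjusted p = 0.00961). With only the nerve libraries in the fit, that difference of Ppt1 was also called (log2 fold change -0.43, adjusted p = 0.0169).

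Of 7 membrane glycoproteins and tetraspan proteins, sciatic nerve showed 3 above and 2 below brain (background 24.1% and 24.3%). Optic nerve showed 1 above and 1 below brain (19.6% and 17.4%). Laptm5, a lysosomal transmembrane protein of blood cells that limits surface levels of antigen receptors (chromosome 4, 130913125 to 130936141, plus strand), measured 1477, 1421, 1725 and 1493 CPM in the sciatic nerve, 2849, 2450.1, 3209.7 and 3405 CPM in the optic nerve and 3756, 4298, 5414, 5351 and 5431 CPM in the brain. The tissues did not overlap and formed the order brain, optic nerve, sciatic nerve. Laptm5 was lower in sciatic nerve (log2 fold change -1.67, SE 0.16, edgeR adjusted p = 4.73e-07) and in optic nerve (log2 fold change -0.70, SE 0.15, edgeR adjusted p = 0.00224) than in brain, and lower in sciatic than in optic nerve (log2 fold change -0.96, SE 0.16, edgeR adjusted p = 3.68e-04). It alone was lower in each step of that order among the 40 genes. Its relative Laptm4a was highest in sciatic nerve (813 ± 88 CPM, against 524 ± 69.2 CPM in the optic nerve and 601 ± 92.1 CPM in the brain). It was called against optic nerve (log2 fold change 0.63, SE 0.16, edgeR adjusted p = 0.00823) and against brain (log2 fold change 0.43, SE 0.15, edgeR adjusted p = 0.0239). The call against brain was lost in 5 of 19 alternatives, among them leaving out sciatic nerve library 3 or 4 and leaving out brain libraries 1 and 2 (adjusted p up to 0.0978).

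Scarb2 encodes LIMP-2, which carries glucocerebrosidase to the lysosome. It measured 140.1, 151, 133 and 153 CPM in the sciatic nerve, 272, 278, 228 and 251 CPM in the optic nerve and 237, 298, 347, 341 and 307 CPM in the brain. Sciatic nerve was below all other libraries, while optic nerve and brain overlapped. Scarb2 was lower in sciatic nerve than in brain (log2 fold change -1.09, SE 0.14, edgeR adjusted p = 1.19e-05) and than in optic nerve (log2 fold change -0.83, SE 0.14, edgeR adjusted p = 4.95e-04). Cd63, a tetraspanin of late endosomes and exosomes, had 541, 522, 399 and 556 CPM in the sciatic nerve, 447, 421, 452 and 336 CPM in the optic nerve and 282, 269, 193, 167 and 192 CPM in the brain. All nerve libraries lay above all brain libraries, and the nerves overlapped. Cd63 was higher in sciatic nerve (log2 fold change 1.19, SE 0.18, edgeR adjusted p = 5.73e-05) and in optic nerve (log2 fold change 0.91, SE 0.18, edgeR adjusted p = 0.0011) than in brain. Lamp1, one of the major glycoproteins of the lysosomal wall, was called higher in sciatic nerve than in brain (1879.8 ± 112 CPM against 1244 ± 415 CPM, log2 fold change 0.59, SE 0.22, edgeR adjusted p = 0.0368), with 596, 1075, 1416, 1587 and 1549 CPM over the brain libraries, and 8 of 19 alternatives lost the call. Lamp2 and Cd68 (macrosialin, a macrophage marker) were not called in any comparison. Lamp2 measured 1364 ± 212 CPM in the sciatic nerve, 938 ± 46.3 CPM in the optic nerve and 1073 ± 379.6 CPM in the brain, its sciatic and optic nerve libraries did not overlap, and without brain libraries 1 and 2 it was higher in sciatic than in optic nerve (log2 fold change 0.53, adjusted p = 0.00271). With only the nerve libraries in the fit, that difference of Lamp2 was also called (log2 fold change 0.51, adjusted p = 0.00872). Cd68 measured 1467 ± 232 CPM in the sciatic nerve, 1216 ± 113 CPM in the optic nerve and 1189 ± 218 CPM in the brain.

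**Figure D3:**
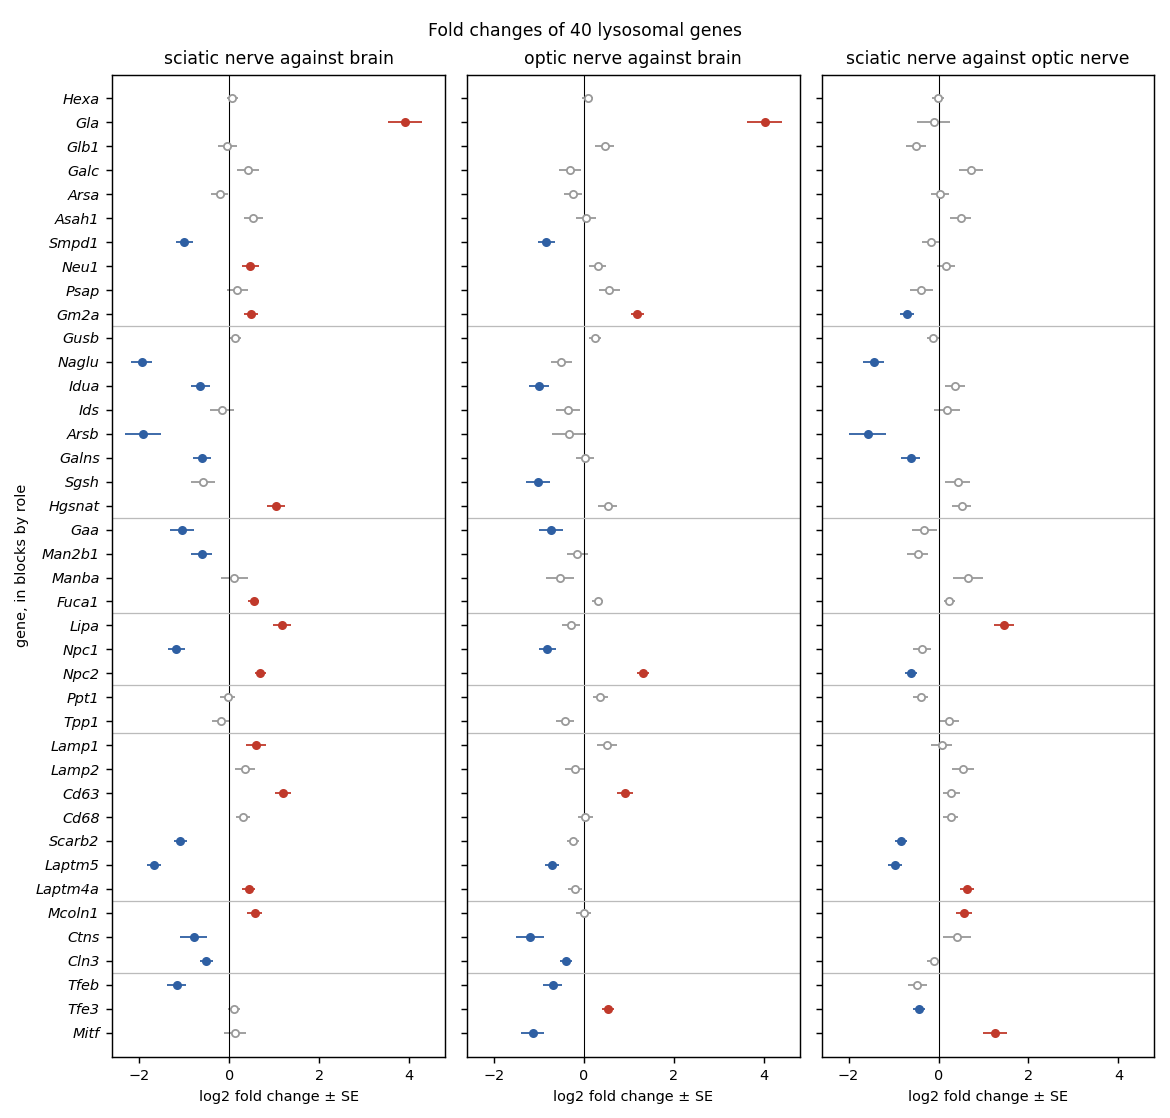
Log2 fold change of each of the 40 genes with its standard error (bars) in the 3 comparisons, in blocks by role. Filled red points were called higher and filled blue points lower at an adjusted p under 0.05 over all genes tested, and open grey points were not called. Gla lies near 4 against brain in both nerves, and Lipa and Mitf are the furthest to the right between the nerves.

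Of the channel and transporter genes, Mcoln1 encodes TRPML1, the calcium channel of the lysosome. It had 68.2, 66.3, 61.6 and 60.1 CPM in the sciatic nerve, 43.9, 40.9, 47.3 and 41.1 CPM in the optic nerve and 31.2, 38.4, 47, 47.9 and 52.1 CPM in the brain. All sciatic nerve libraries were above all others. Mcoln1 was higher in sciatic nerve than in brain (log2 fold change 0.56, SE 0.16, edgeR adjusted p = 0.0101) and than in optic nerve (log2 fold change 0.56, SE 0.17, edgeR adjusted p = 0.0283). The second call was lost in 7 of 20 alternatives. Ctns encodes cystinosin, the exporter of cystine. Its values were 49.4, 66.7, 60.9 and 67.6 CPM in the sciatic nerve, 50.3, 40.6, 34.5 and 58.6 CPM in the optic nerve and 41.1, 77.1, 149.5, 130.1 and 132 CPM in the brain. Brain libraries 2 to 5 were above every nerve library, and library 1 was not. Ctns was lower in optic nerve (log2 fold change -1.21, SE 0.31, edgeR adjusted p = 0.00711) and in sciatic nerve (log2 fold change -0.79, SE 0.30, edgeR adjusted p = 0.0426) than in brain, the latter lost in 10 of 19 alternatives. Cln3, the membrane protein mutated in Batten disease, measured 82.8, 54.3, 57.7 and 61.3 CPM in the sciatic nerve, 75.8, 66.9, 63.5 and 70.5 CPM in the optic nerve and 90.4, 92.9, 89.2, 90.5 and 92 CPM in the brain. The brain libraries were close together and above both nerves. Cln3 was lower in sciatic nerve (log2 fold change -0.51, SE 0.14, edgeR adjusted p = 0.00939) and in optic nerve (log2 fold change -0.40, SE 0.14, edgeR adjusted p = 0.0421) than in brain, and 11 of 19 alternatives lost the call in optic nerve.

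The 3 MiT/TFE transcription factors ranked the tissues differently: Tfeb was highest in brain, Tfe3 in optic nerve, and Mitf was lowest in optic nerve. Tfeb measured 22.3, 17.7, 18.7 and 21.6 CPM in the sciatic nerve, 28, 37.8, 26.6 and 18.9 CPM in the optic nerve and 34.5, 45, 48.5, 44.7 and 52.4 CPM in the brain. Sciatic nerve lay below all brain libraries, and optic nerve overlapped both. Tfeb was lower in sciatic nerve (log2 fold change -1.17, SE 0.21, edgeR adjusted p = 3.40e-04) and in optic nerve (log2 fold change -0.70, SE 0.21, edgeR adjusted p = 0.0161) than in brain. The call in optic nerve was lost without optic nerve library 4 (log2 fold change -0.55, adjusted p = 0.0514). Tfe3 had 179, 133, 158 and 137 CPM in the sciatic nerve, 199, 193, 188 and 238 CPM in the optic nerve and 132, 137, 149, 141 and 145 CPM in the brain. It was highest in optic nerve, whose libraries lay above all others. Tfe3 was higher in optic nerve than in brain (log2 fold change 0.54, SE 0.13, edgeR adjusted p = 0.00481) and lower in sciatic than in optic nerve (log2 fold change -0.43, SE 0.14, edgeR adjusted p = 0.0354), a call that 7 of 20 alternatives lost. Mitf had 15.8, 29, 27.6 and 28.9 CPM in the sciatic nerve, 11.6, 11.8, 7.14 and 11.8 CPM in the optic nerve and 29, 23.8, 18.2, 25.4 and 20.02 CPM in the brain. Optic nerve was below every library of the other tissues, which overlapped. Mitf was lower in optic nerve than in brain (log2 fold change -1.14, SE 0.25, edgeR adjusted p = 0.00285) and higher in sciatic than in optic nerve (log2 fold change 1.26, SE 0.26, edgeR adjusted p = 0.00258). These are RNA levels, and the place of the proteins in the cell was not measured.

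Over the 3 tissues, 3 genes were above both other tissues in sciatic nerve (Lipa, Laptm4a and Mcoln1, background 8.36% of tested genes) and 5 below both (Naglu, Arsb, Galns, Scarb2 and Laptm5, background 8.43%). In optic nerve Gm2a, Npc2 and Tfe3 were above both others (background 2.53%) and Mitf below both (background 2.34%). In brain 8 genes were above both nerves (Smpd1, Idua, Gaa, Npc1, Laptm5, Ctns, Cln3 and Tfeb, background 11.9%) and 4 below both (Gla, Gm2a, Npc2 and Cd63, background 15.5%). No comparison was called for 13 genes (background 41.9%). The shares of the 40 genes behind these counts are small numbers and were not tested against the background.

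Other genes of the same pathway were read from 4 lists, whose counts stand against a background of 24.1% of all genes tested higher and 24.3% lower in sciatic nerve, and 19.6% higher and 17.4% lower in optic nerve, relative to brain. The higher counts of the further hydrolases and all counts of the delivery genes were near or under those shares. Of further lysosomal hydrolases 6 of 26 were higher and 11 lower in sciatic nerve, and 5 higher and 8 lower in optic nerve, relative to brain. Acp5, tartrate-resistant acid phosphatase, reached 41.7 ± 14 CPM in sciatic nerve and 2.92 ± 1.65 CPM in optic nerve, and brain held 0.0568 ± 0.0909 CPM (sciatic nerve against brain edgeR adjusted p = 7.29e-08). Of genes for delivery and maturation of the enzymes 2 of 14 were higher and 3 lower in sciatic nerve, and 0 higher and 1 lower in optic nerve, relative to brain. Sort1, the sorting receptor sortilin, which carries prosaposin and acid sphingomyelinase, measured 3.69 ± 3.59 CPM in the sciatic nerve, 75.2 ± 12.9 CPM in the optic nerve and 203 ± 77.5 CPM in the brain (sciatic nerve against brain log2 fold change -5.79, SE 0.60, edgeR adjusted p = 1.52e-06). Cln6, a protein of the endoplasmic reticulum needed for lysosomal enzyme transfer, was higher in sciatic nerve than in brain (32.8 ± 4.88 CPM against 8.85 ± 2.14 CPM, log2 fold change 1.89, SE 0.31, edgeR adjusted p = 1.43e-04).

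Of further lysosomal membrane proteins 4 of 24 were higher and 13 lower in sciatic nerve, and 2 higher and 13 lower in optic nerve, relative to brain, against the same background shares of 24.1% and 24.3%, and 19.6% and 17.4%. The median log2 fold change of that list was -0.67 and -0.75. Slc29a3, a nucleoside transporter, measured 439 ± 186 CPM in brain, 182 ± 39.99 CPM in optic nerve and 55.6 ± 15.1 CPM in sciatic nerve (sciatic nerve against brain log2 fold change -2.98, SE 0.34, edgeR adjusted p = 3.77e-06). Cd164, a sialomucin, measured 1438 ± 507 CPM, 509 ± 32.7 CPM and 371 ± 72.6 CPM in the same order (log2 fold change -1.95, SE 0.25, edgeR adjusted p = 1.55e-05). Of genes of nutrient signalling at the lysosome 7 of 16 were higher and 3 lower in sciatic nerve, and 3 higher and 2 lower in optic nerve, relative to brain, and the counts in optic nerve were near the background. Rptor encodes raptor, the subunit through which mTORC1 binds its substrates. It was at 13.7 ± 8.87 CPM in the sciatic nerve, 66.1 ± 6.79 CPM in the optic nerve and 135 ± 17.7 CPM in the brain (sciatic nerve against brain log2 fold change -3.30, SE 0.32, edgeR adjusted p = 8.02e-07, optic nerve against brain log2 fold change -1.03, SE 0.29, edgeR adjusted p = 0.0126). Rheb, the GTPase that activates mTORC1, was higher in both nerves, at 332 ± 51 CPM and 437 ± 73 CPM against 112 ± 10.7 CPM (optic nerve against brain log2 fold change 1.97, SE 0.15, edgeR adjusted p = 1.40e-07).

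**Figure D4:**
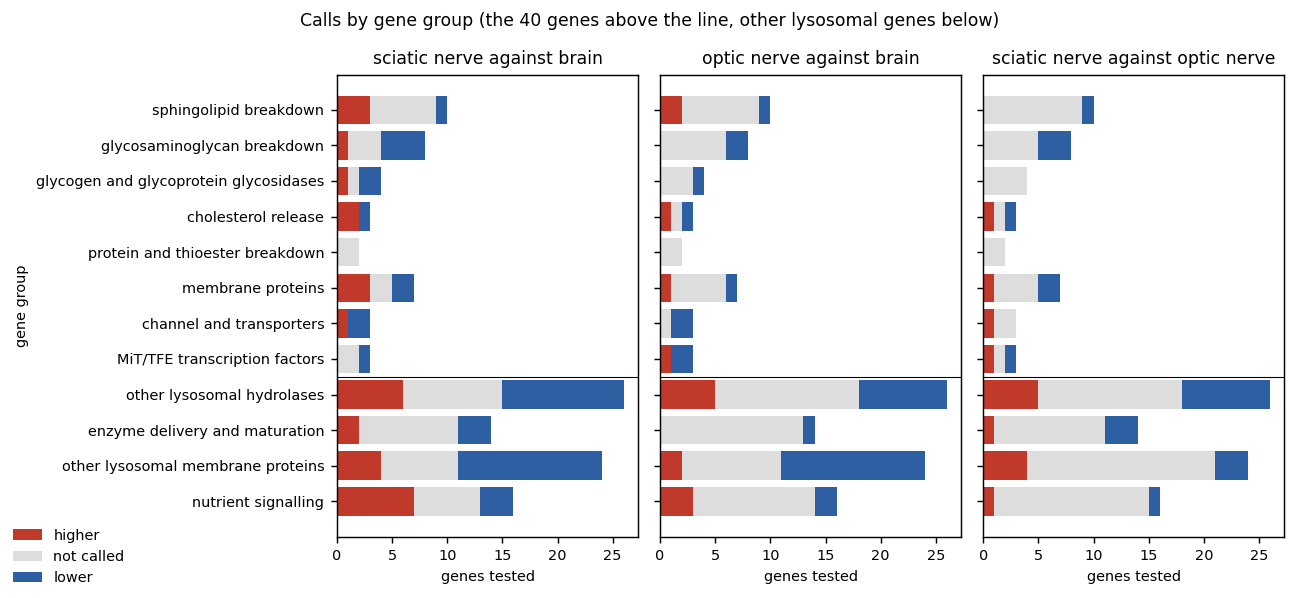
Number of tested genes called higher (red), lower (blue) or not called (grey) in each of 3 comparisons, for the 8 role groups of the 40 genes above the line and the 4 lists of other lysosomal genes below it. Among further lysosomal membrane proteins 13 of 24 are lower in each nerve than in brain.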

How the data were processed

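RNA sequencing of 13 libraries was analysed. The deposited table holds counts of reads per gene symbol, which the authors made, per the submitters' processing notes, by STAR alignment and featureCounts 1.5.1 on mm10. The STAR version, gene models and strandedness were not given in the sources used here. All values are whole numbers, and 0 columns of per-sample values were left unused. Sciatic and optic nerve columns were matched to samples by tissue initials and replicate number, and the 5 remaining columns to brain by elimination.

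Genes were filtered with filterByExpr (13246 of 48587 kept), scaled by TMM and fitted in edgeR 4.0.16 (R 4.3.3) with all 13 libraries in 1 quasi-likelihood model of tissue. The 3 contrasts were adjusted by Benjamini-Hochberg over all genes tested, and calls were made under an adjusted p of 0.05. Standard errors were derived from the fold change and its F statistic, and ± gives the SD over libraries. The fit was tested on simulated data. Alternatives were DESeq2 1.42.0, RLE and upper-quartile scaling, no filter, a 2-fold threshold, only the tissues compared, a replicate block, and each library left out. Brain libraries 1 and 2 were also left out together, a choice made after seeing the data.

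Members and lists were chosen with earlier results of these data known. Values in every library are given for the 3 genes of each role group with the largest fold change (all genes of smaller groups), and up to 2 genes are named per list of other lysosomal genes. A gene that this rule selects is not reported here. Gene positions come from GENCODE M21 (GRCm38) and promoters from RefSeq (GRCm38.p6). Libraries held 10.9 to 23.5 M counts, and genes with few counts are the least precise.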

Additional observations from a re-analysis of the deposited data

Results flagged for a closer look

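Within each tissue the gap between the lowest or highest library and its nearest neighbour was compared with the range of the group (Dixon's criterion at the 95% level), over 120 groups of the 40 genes and 3 tissues, of which chance flags about 1 in 20. There were 6 such groups, and in each the lowest library stood apart. Brain library 1 did so for Gm2a, at 161 CPM against 248 to 272 CPM in the other 4, for Idua, at 41.8 CPM against 79.6 to 89.0 CPM, and for Cd68, at 809 CPM against 1234 to 1347 CPM. Gm2a stood at 298 CPM in sciatic nerve library 2 against 350 to 355 CPM in the others. Mitf stood at 15.8 CPM in sciatic nerve library 1 against 27.6 to 29.0 CPM, and at 7.14 CPM in optic nerve library 3 against 11.6 to 11.8 CPM.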

How the results depend on the processing

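The directions of all called members held under every alternative run. Called genes that stayed called under every one of the 19 alternatives numbered 16 of 24 in sciatic nerve against brain and 12 of 15 in optic nerve against brain, and under 20 alternatives 9 of 12 between the nerves. These alternatives include the run without brain libraries 1 and 2 but not the 2-fold threshold, which some of the genes counted as kept do not reach. With a fold change of at least 2 required, 4 members were called higher and 8 lower in sciatic nerve against brain (background 18.0% and 19.3%). In optic nerve against brain the calls were 3 and 4 (12.6% and 12.5%), and between the nerves 2 and 2 (8.28% and 7.85%). Without the filter on low counts, which tests more genes, 7 members were higher in sciatic nerve than in brain. With only the nerve libraries in the fit, 7 members were higher in sciatic than in optic nerve, and Glb1, Man2b1 and Ppt1 were added to those lower. Leaving out brain libraries 1 and 2 together, which was chosen after seeing the data, gave 19 members lower in optic nerve than in brain and 9 higher in sciatic than in optic nerve. It also added Glb1, Psap, Man2b1 and Ppt1 to those lower in sciatic than in optic nerve, and Neu1 and Fuca1 to those higher in optic nerve than in brain. The brain libraries enter the comparison of the nerves only through the filter, the scaling and the shared estimate of spread. In the run without brain libraries 1 and 2 the log2 fold changes between the nerves moved little. For example, that of Asah1 went from 0.49 to 0.48 and that of Glb1 from -0.51 to -0.52. The cause of these shifts in calls was not tested. With 1 library left out, the calls ranged from 8 to 11 higher and 10 to 13 lower in sciatic nerve against brain, 5 to 7 higher and 8 to 14 lower in optic nerve against brain, and 3 to 6 higher and 6 to 11 lower between the nerves. Without brain library 1, 6 members were higher in sciatic than in optic nerve, and Glb1, Man2b1 and Ppt1 were added to those lower. The background for the run without brain libraries 1 and 2 stands with its counts in the Results. For the other runs the share of all genes called is not set beside the counts. A change in calls over the whole table cannot be told apart there from a change in these genes.

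The replicate block was fitted for the nerves alone, and it gave 7 members higher and 7 lower in sciatic than in optic nerve. The share of all genes called in that fit is not set beside these counts. Same-numbered nerve libraries did not deviate together (correlations of -0.054, 0.0211, -0.0741 and -0.0632 over genes). No sciatic nerve library except library 2 correlated best with its own number. Such correlations cannot tell whether same-numbered libraries came from the same animals, which the labels do not say. No paired analysis was possible for the comparisons with brain because the brain columns were assigned only as a group, so that their numbers could not be matched to the numbered brain samples. Acp5 had few reads in brain, so no fold change against brain is given for it.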
